A study of Mus musculus with 3 samples.

Results

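The replication-dependent histone genes were followed in 3 single-cell libraries of mouse spleen. Members were all gene symbols of the deposited feature table that name a clustered linker histone (H1f1 to H1f5) or a clustered core histone (the H2ac, H2bc, H3c and H4c series). This gave 66 of 33696 genes, with 5 H1, 18 H2A, 18 H2B, 12 H3 and 13 H4 genes. Symbols alone set the membership, but the rule was chosen with earlier results of these data known.

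These genes supply the histones that wrap newly copied DNA: H2A, H2B, H3 and H4 form the core of the nucleosome, and H1 binds the DNA where it enters and leaves that core. Their mRNAs accumulate in S phase and are degraded when DNA synthesis ends. Most end in a short stem-loop, which is bound by the protein SLBP, in place of a poly(A) tail, although some members are also known to give polyadenylated transcripts in cells that have left the cycle. The spleen holds resting lymphocytes and myeloid cells beside dividing germinal centre B cells, activated T cells and, in the mouse, erythroid and myeloid precursors, so the demand for new histones differs strongly between its cells.

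The groups were named MASH-Phe-free, MASH and Chow by their titles, where MASH stands for metabolic dysfunction-associated steatohepatitis and Phe for phenylalanine, the amino acid named in the series title. Each group was 1 spleen library made from polyadenylated RNA with a 5′ kit that tags molecules with unique molecular identifiers (UMIs). The design text of the series describes C3H mice given a high-fat diet and then a methionine- and choline-deficient diet, control mice on another diet, and HCA-1 hepatocellular carcinoma tumours for bulk sequencing. For the spleen libraries themselves, the diet given, the strain, the number of animals, their age and whether they carried a tumour is not stated in the labels.

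The files held 16778 barcodes for MASH-Phe-free, 19219 for MASH and 16495 for Chow, with 138787602 to 160115282 UMIs per library. Of these, 15864, 17651 and 15984 cells were kept, each with at least 500 UMIs, at least 300 genes and at most 10% mitochondrial UMIs. Cells were placed in classes by 8 marker genes per class, and 87.5% of MASH-Phe-free cells, 84.6% of MASH cells and 88.6% of Chow cells received a class. Between 72 and 102 barcodes occurred in each pair of libraries. With 1 library per group, no difference between groups could be tested. Intervals on levels and ratios are 95% exact Poisson intervals and those on shares of cells are 95% exact binomial intervals. Both cover counting error only.

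The feature of the mRNA that sets this family apart is shown here because the members differ in what follows it. The histone 3′ stem-loop, searched on the transcript strand as a 16-base pattern that opens with GG, closes with CC and holds CTTTT in its first strand and loop, was found in the annotated transcripts of 43 of 66 members and of 157 of 55450 genes in all (0.283%, GENCODE M21, GRCm38). All 43 lay after the stop codon. The form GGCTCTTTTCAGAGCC was shared by 26 members from the H1, H2A, H2B and H3 families, whereas 7 H4 genes carried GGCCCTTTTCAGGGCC. The windows below give 5 bases on each side, with the 16-base stem-loop in capitals, for 2 core histone members that are high in cycling cells (H2ac8, H2ac4), the 3 members highest in resting cells (H4c4, H1f4, H1f2), and H4c9, which was prominent in platelet-like cells.
H2ac8: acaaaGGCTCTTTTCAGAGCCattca
H2ac4: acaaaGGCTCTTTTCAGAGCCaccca
H4c4: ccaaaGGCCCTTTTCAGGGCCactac
H1f4: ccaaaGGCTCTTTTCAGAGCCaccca
H1f2: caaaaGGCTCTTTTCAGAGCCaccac
H4c9: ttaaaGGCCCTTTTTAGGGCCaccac

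All 6 genes lie on chromosome 13, and the stem-loop of H2ac8 occupies chr13:23570668-23570683 on the minus strand, that of H2ac4 chr13:23751572-23751587 on the plus strand, that of H4c4 chr13:23581950-23581965 on the plus strand and that of H1f4 chr13:23621782-23621797 on the minus strand. The annotated transcript ran on for 11 bases past the stem-loop in H2ac4 and for 151 bases in H2ac8. In H4c4 it ran on for 770 bases, in H1f2 for 840 bases and in H1f4 for 1153 bases, so these genes are annotated with an end well beyond the processing site. No match to the motif was found in the annotated transcripts of H1f5, H1f1 or H2bc4.

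Most of the family sits in a single cluster. Chromosome 13 held 53 of the 66 members, chromosome 3 held 10, chromosome 11 held 2 and chromosome 6 held 1 (GRCm38). Genes of the cluster are often paired head to head, and the promoter of H2ac8, the member with the most UMIs, is shown as such a case. Its RefSeq window (GRCm38.p6, chr13:23571171-23571470, minus strand, 250 bases before to 50 after the start) overlaps the window of H2bc8 by 279 of 300 bases. Capitals mark matches to the CCAAT box, the TATA box searched as TATAAA, and the octamer ATTTGCAT known from histone H2B promoters, each on either strand. In this window the TATAAA and octamer matches read on the strand of H2bc8, and the window of H2bc8 holds the same sites. No motif match overlaps another in the window.
H2ac8 promoter: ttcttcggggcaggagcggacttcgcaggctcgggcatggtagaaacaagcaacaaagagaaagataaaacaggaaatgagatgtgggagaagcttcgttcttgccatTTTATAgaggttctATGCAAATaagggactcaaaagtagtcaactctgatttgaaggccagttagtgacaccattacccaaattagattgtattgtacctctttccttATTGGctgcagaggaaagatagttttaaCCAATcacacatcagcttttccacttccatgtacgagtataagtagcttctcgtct

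Promoter windows were available for 57 members. CCAAT stood in 49 of them, against 37.9% of all 27025 promoter windows. All H1, H2A, H2B and H3 windows held it, but only 3 of 11 H4 windows did. TATAAA stood in 34 member windows, against 14.2% of all windows. The octamer stood in 12, which were 6 H2A and 6 H2B genes, against 1.75% of all windows. A site in the stretch shared by H2ac8 and H2bc8 counts for both, so these are not 12 separate sites. Although H2ac8 and H2bc8 share nearly the whole window, H2ac8 averaged 798 and H2bc8 42.0 CPM over the 3 libraries in cells with a UMI of Mki67 or Top2a, where CPM are the UMIs of a gene scaled to all UMIs of the same cells. UMIs count tagged 5′ ends and were not divided by transcript length, and how well each mRNA is captured without a poly(A) tail is not known from the files, so levels of different members compare captured molecules only.

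Cells were split by whether they held at least 1 UMI of Mki67 or Top2a, 2 genes of proliferating cells. Cells with such a UMI are called positive and the others negative. Positive cells made up 3065 MASH-Phe-free cells (19.3%), 2830 MASH cells (16%) and 1784 Chow cells (11.2%). They were also deeper, with medians of 13480, 9961 and 11516 UMIs in MASH-Phe-free, MASH and Chow positive cells, against 5910, 5904 and 7011 in the negative cells of the same libraries. Levels are therefore given as CPM.

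Histone UMIs were concentrated in positive cells. The members together reached 6689 CPM in positive cells of MASH-Phe-free, 6113 in MASH and 4672 in Chow, against 438, 368 and 331 CPM in the negative cells of those libraries. Positive cells held 92.3%, 89.1% and 80.9% of all member UMIs in MASH-Phe-free, MASH and Chow. Over all kept cells together, the positive cells of each library were above the negative cells of all 3 libraries. All 66 members can be accounted for: 1 (H2ac1) had no UMI in any kept cell, 4 had 1 to 99, and 61 had at least 100. Of the 66, 60 were higher in positive cells in all 3 libraries, as were 17% of all 33696 genes, and 41 were over 10-fold higher by the mean of the libraries, as were 1.72% of all genes. H2ac25 and H3c14 were lower in all 3, as were 29.1% of all genes.

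Among the linker histones, H1f5 had 943, 842 and 565 CPM in positive cells of MASH-Phe-free, MASH and Chow, against 11.6, 7.77 and 4.34 CPM in their negative cells. H1f4 had 701, 583 and 552 CPM in positive cells, against 74.3, 64.4 and 50.2 CPM in negative cells. The groups did not overlap for either gene, but H1f4 kept a far larger part of its level in negative cells. H1f2 lay closer still between the groups, with 221, 234 and 191 CPM in positive cells, against 70.2, 61.4 and 52.6 CPM in negative cells. The ratio of the means was thus 99 for H1f5, 9.71 for H1f4 and 3.50 for H1f2, genes that encode variants of the same protein.

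The core histones showed the same spread of ratios. H2ac8, an H2A gene, had 929, 849 and 617 CPM in positive cells of MASH-Phe-free, MASH and Chow, against 14.7, 12.2 and 12.0 CPM in negative cells. H2ac4, another H2A gene, had 748, 676 and 578 CPM in positive cells, against 8.48, 5.83 and 3.98 CPM in negative cells, a ratio of 109. Neither gene overlapped between the groups. H2ac20, an H2A gene on chromosome 3, averaged 241 CPM in positive and 17.7 CPM in negative cells. No H2B gene was among the leading 8. H2bc4 had 35.5, 27.6 and 28.3 CPM in positive cells, against 21.9, 14.0 and 10.9 CPM in negative cells. With all classes pooled, its level in negative cells was thus high relative to that in positive cells. Its level in negative cells differed strongly between classes, as given below. H3c6, the leading H3 gene, had 219, 193 and 139 CPM in positive cells, against 15.3, 12.3 and 12.2 CPM in negative cells. H4c4 had 780, 675 and 527 CPM in positive cells, against 80.3, 69.2 and 66 CPM in negative cells, and was the highest member of all in negative cells.

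**Figure D1:**
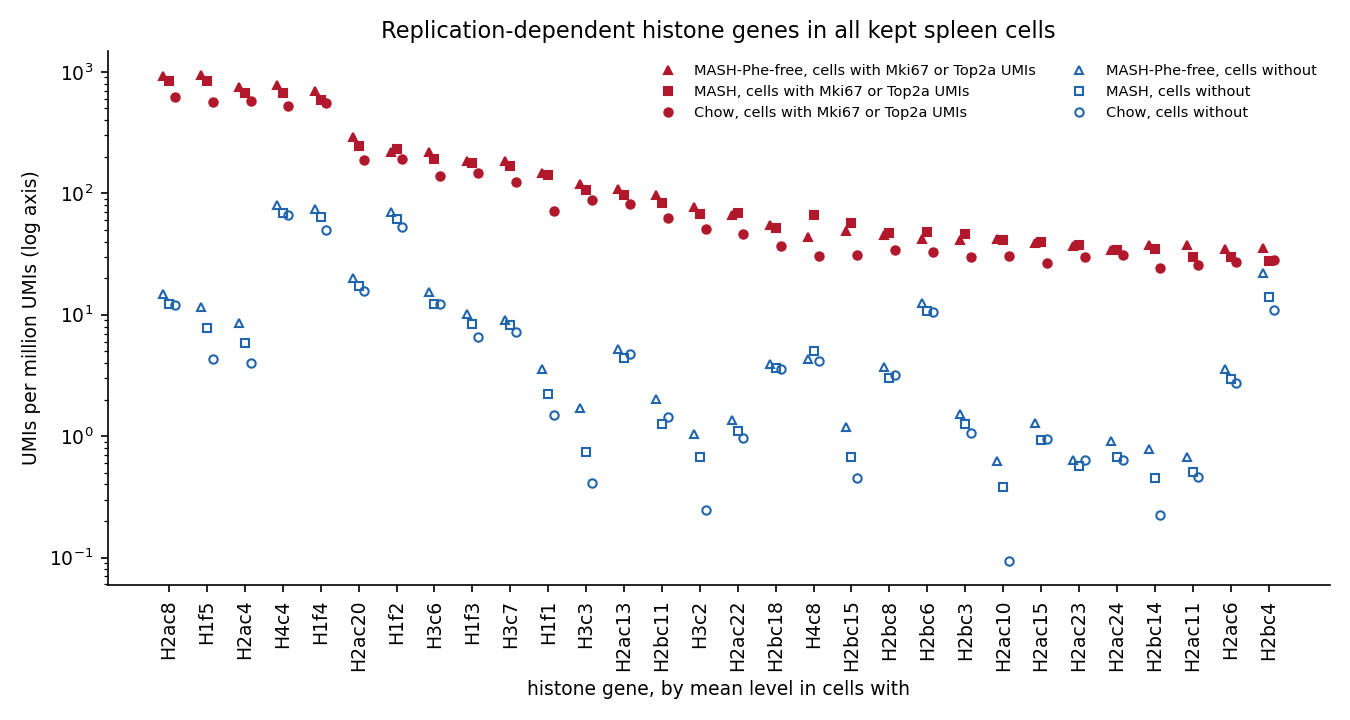
Level (CPM, log axis) of the leading members, ordered by their mean in positive cells; filled red symbols are cells with and open blue symbols cells without Mki67 or Top2a UMIs, 1 symbol per library. H1f5, H2ac4 and H2ac8 lie between 565 and 943 CPM in positive cells and at 14.7 CPM or less in negative cells, whereas H4c4, H1f4 and H1f2 stay at 50.2 CPM or more in negative cells.

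The make-up of the family differed between the states. H2A genes supplied 36.0%, 35.8% and 36.6% of member CPM in positive cells of MASH-Phe-free, MASH and Chow, against 14.9%, 14.8% and 14.9% in negative cells. H4 genes supplied 13.8%, 14.0% and 13.7% in positive cells, against 26.7%, 27.6% and 31.3% in negative cells. These shares were close among libraries and did not overlap between states. H1 genes supplied 32.3% to 32.8% in positive and 34.8% to 39.2% in negative cells, H2B genes 7.01% to 7.59% and 10.7% to 11.8%, and H3 genes 10.1% to 10.4% and 7.70% to 8.35%.

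The length annotated after the stem-loop went with the level in negative cells. Among members with at least 100 UMIs, the 18 with 300 bases or more after the stem-loop had a median of 4.74 CPM in negative cells and a median ratio of positive to negative cells of 9.46. The 24 with fewer than 300 bases had a median of 0.847 CPM in negative cells and a median ratio of 37.7. The ranges of the ratio, 0.533 to 40.6 and 1.22 to 110, overlapped widely. The 19 members with no stem-loop in the annotated transcripts had a median ratio of 30.9. The limit of 300 bases was chosen after the values were seen, so this is a description with no test.

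The difference between positive and negative cells was tested within each class, with the library as a block, by edgeR's quasi-likelihood test over all genes with Benjamini-Hochberg adjustment and an adjusted p under 0.05. In T-like cells, 52 of 58 tested members were higher in positive cells, where 25.5% of all tested genes were called higher. In B-like cells the count was 54 of 60, against 20% of all genes. In immature neutrophil-like cells it was 54 of 54 (31.4% of all genes), and in monocyte-like cells 55 of 55 (20%). The count was 36 of 42 in NK-like cells (9.62% of all genes) and 29 of 32 in cDC1-like cells, a conventional dendritic cell class (4.37%). It was 10 of 31 in macrophage-like cells (1.54%) and 5 of 38 in plasma-like cells (0.441%). No member was called lower in any of the 8 classes in these fits, where the share of all genes called lower was 14% in B-like, 0.15% in plasma-like, 22.8% in T-like, 3.88% in NK-like, 27.5% in immature neutrophil-like, 17.9% in monocyte-like, 0.18% in macrophage-like and 4.44% in cDC1-like cells. DESeq2 called from 12 to 53 members higher in these classes.

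Within these classes 60 of the 66 members passed the minimum of 30 UMIs in at least 1 class. Of them 56 were called higher in at least 1 class, as were 37.5% of the 17088 genes tested in any class. H1f5, H2ac4 and H2ac8 were called higher in all 8, as were 0.14% of those genes. H2ac19, H2ac25, H2bc27 and H3c14 were called in none. The median log2 difference over tested members was 4.83 in T-like and 3.34 in B-like cells, against -0.03 and -0.02 over all tested genes. It was 6.12 in immature neutrophil-like, 4.19 in monocyte-like, 3.72 in cDC1-like, 3.08 in NK-like, 2.04 in macrophage-like and 1.80 in plasma-like cells, with all-gene medians between -0.02 and 0.03. The plasma-like and macrophage-like counts fell to 0 without the library block, where edgeR gave 27 and 23 members an unadjusted p under 0.05, and DESeq2 with the block called 12 in each. The plasma-like count was also 0 without the 2% deepest cells of each library and 1 to 2 when any single library was left out, and the positive plasma-like cells were deep, with medians of 32802 to 39249 UMIs. Without the 2% deepest cells the count was 34 of 51 tested in monocyte-like cells (3.98% of all genes). It was 15 of 19 in cDC1-like (1.94%) and 16 of 31 in macrophage-like cells (1.43%). Without the MASH-Phe-free library it was 17 of 20 in cDC1-like cells (4.03%).

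In T-like cells H2ac4 had 498, 456 and 545 CPM in positive cells of MASH-Phe-free, MASH and Chow, against 3.70, 2.38 and 1.12 CPM in negative cells. The log2 difference was 7.72 (SE 0.18, edgeR adjusted p = 9.44e-09). H1f5 had 555, 440 and 507 CPM in positive T-like cells, against 4.52, 2.97 and 1.03 CPM in negative ones, a log2 difference of 7.48 (SE 0.20, edgeR adjusted p = 1.95e-08). In every library both genes were far higher in positive cells, and the groups did not overlap. H1f2 had 208, 190 and 218 CPM in positive T-like cells, against 60.2, 56.6 and 46.7 CPM in negative ones. Its log2 difference of 1.83 (SE 0.09, edgeR adjusted p = 4.80e-07) was the smallest of the members named here, followed by H4c4 with 2.51, H1f4 with 3.19, H2ac20 with 3.26, H2bc4 with 3.31 and H3c6 with 4.09.

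In B-like cells the order was alike but the differences were smaller for the strongest members. H2ac8 had 512, 660 and 427 CPM in positive B-like cells of MASH-Phe-free, MASH and Chow, against 17.9, 13.1 and 16.3 CPM in negative ones, a log2 difference of 5.15 (SE 0.19, edgeR adjusted p = 1.46e-06). The same gene differed by 6.73 in T-like cells. H1f5 differed by 6.25 and H2ac4 by 6.10 in B-like cells, H1f4 by 2.67, H4c4 by 2.30 and H1f2 by 1.56. Whether B-like and T-like cells differ in these sizes was not tested.

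The level in positive cells depended strongly on the class. Erythroid-like cells, taken by markers such as Klf1 and Epor, had 10826 CPM in MASH-Phe-free, 11460 in MASH and 9008 in Chow, in each library the highest of the classes with at least 20 positive cells in every library. They held 48.2%, 54.6% and 15.8% of all member UMIs in those libraries, from 463, 553 and 67 positive cells. Their median depth differed between libraries, at 46456, 8628 and 39382 UMIs for the whole class, and its part in these levels was not tested. Immature neutrophil-like cells had 7626, 4314 and 7470 CPM, and monocyte-like cells 6042, 3497 and 5535 CPM. T-like cells had 4627, 3876 and 4457 CPM, and their range overlapped that of monocyte-like cells. B-like cells had 3309, 4339 and 2720 CPM and overlapped T-like cells, while the germinal centre subset of B-like cells, called by germinal centre markers, had 5754, 11109 and 8105 CPM. NK-like cells had 5681, 2739 and 1325 CPM, the widest spread of the lymphoid classes. Macrophage-like cells had 1486, 2403 and 394 CPM, plasma-like cells 699, 502 and 1009 CPM, and mature neutrophil-like cells 1206, 498 and 498 CPM.

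**Figure D2:**
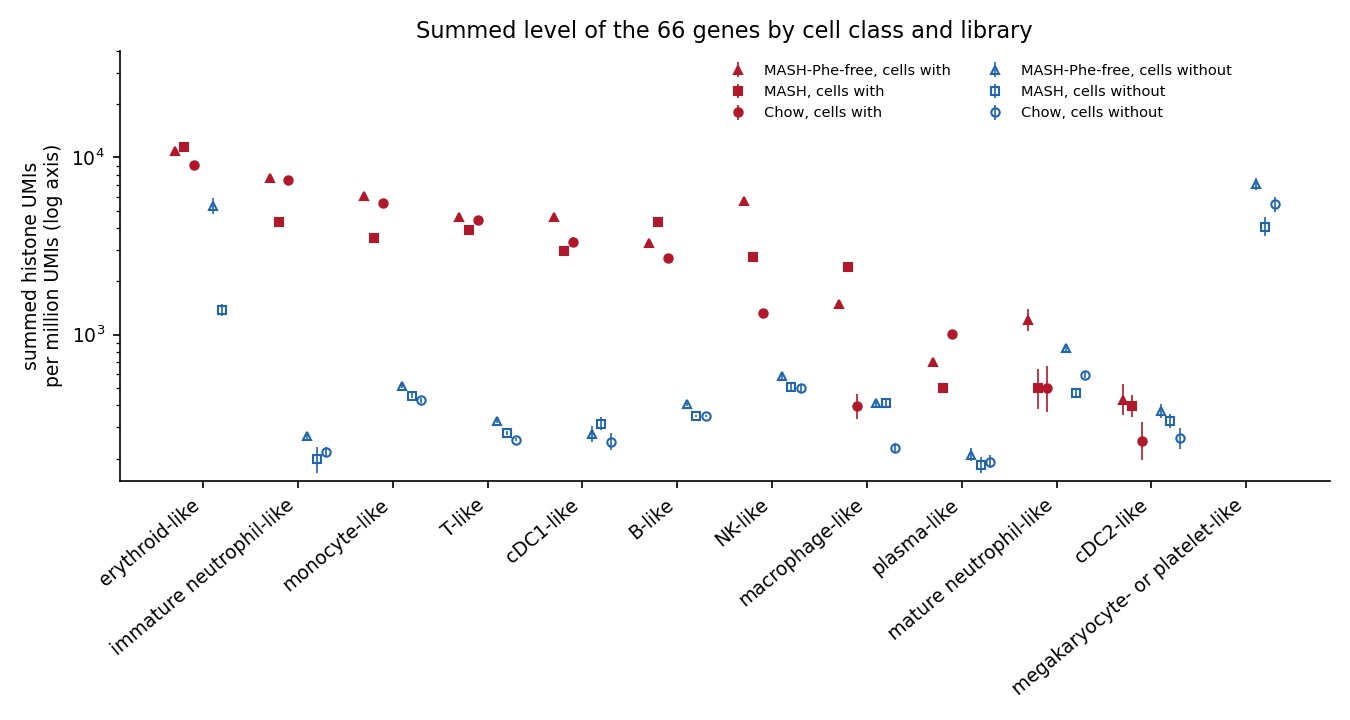
Summed level of the members (CPM, log axis) by marker-defined class in positive cells (cells with, filled red) and negative cells (cells without, open blue) of each library; bars are 95% exact Poisson intervals, which cover counting error only, and groups of fewer than 15 cells are left out. Positive erythroid-like cells lie at 9008 CPM or more and negative T-like cells at 327 CPM or less, while negative platelet-like cells stand at 4075 CPM or more.

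Negative cells of most classes lay within a narrow band. B-like cells had 405, 349 and 347 CPM in MASH-Phe-free, MASH and Chow, T-like cells 327, 278 and 256 CPM, NK-like cells 582, 507 and 499 CPM, and monocyte-like cells 511, 452 and 426 CPM. Immature neutrophil-like cells were lower, at 269, 197 and 218 CPM, and plasma-like cells lower still, at 210, 184 and 192 CPM. Erythroid-like cells without the gate UMI were few, 27, 87 and 3, and still had 5335, 1377 and 2981 CPM. Their summed erythroid marker level was 5530, 3733 and 9148 CPM, with none of the 8 markers at 0 in MASH-Phe-free and MASH and 2 of 8 at 0 in Chow. These markers also set the class, so their level is no separate evidence of identity.

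Holding a gate UMI did not by itself go with a high histone level. T-like cells with exactly 1 gate UMI had 359, 301 and 316 CPM in MASH-Phe-free, MASH and Chow, close to the 327, 278 and 256 CPM of T-like cells with none. T-like cells with 11 or more had 13245, 12556 and 12846 CPM. The level thus lay near that of negative cells up to 3 gate UMIs (413, 334 and 341 CPM) and reached its high range only at 11 or more. B-like cells with 1 gate UMI had 387, 335 and 336 CPM, against 9065, 12832 and 11034 CPM with 11 or more. Mature neutrophils have left the cycle, so mature neutrophil-like cells were taken as a rough measure of stray gate UMIs. Whether all cells of that class had left the cycle was not tested. Thinned to 3000 UMIs a cell, 2.34%, 1.81% and 1.65% of them were positive. The thinned shares were 12.6%, 11.2% and 7.90% for T-like cells, above that measure, and 6.92%, 5.40% and 4.04% for B-like cells, also above it. Before thinning, 3.33%, 3.13% and 2.87% of mature neutrophil-like cells were positive. The unthinned shares of T-like cells were 19.9%, 20% and 14.9%, and those of B-like cells 13.2%, 10.1% and 7.95%.

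In T-like and B-like cells a small number of cells carried most histone UMIs. Of positive T-like cells, 37 in MASH-Phe-free, 39 in MASH and 37 in Chow stood at 5000 member CPM or more, which was 8.51% [6.06% to 11.5%], 7.04% [5.05% to 9.50%] and 7.86% [5.59% to 10.7%]. They held 90.9%, 90.3% and 91.5% of the member UMIs of positive T-like cells and averaged 21680, 22224 and 22835 CPM. The positive T-like cells below that level averaged 523, 447 and 459 CPM, so the 3 libraries were close both in the share and in the level of these cells. In positive B-like cells the share over the limit was 9.95%, 12.0% and 8.01%, with overlapping intervals. It was 68.9%, 58.0% and 67.2% in erythroid-like cells, where most positive cells were over the limit. Positive NK-like cells over it numbered 9, 6 and 1, and plasma-like cells 4, 7 and 2, with 46.4%, 31.1% and 70.2% of the member UMIs of positive plasma-like cells.

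Within the cycle, the timing was read from 33 S-phase genes and 33 G2/M genes, none of them a member. The S share of a cell is its S-phase UMIs over the sum of both lists, for positive cells with at least 10 such UMIs. Cells at 0.667 or more are called S-leaning and cells at 0.333 or less G2/M-leaning. The lists and the gate are not independent of each other, since Mki67 and Top2a are themselves highest in G2 and M.

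With all named classes pooled, histone levels were highest in bins between the ends of the S share and lowest at the S end. In MASH and Chow the highest bin lay on the G2/M-leaning side. Over all named classes and from low to high S share, MASH-Phe-free cells had 6270, 10231, 11434, 11727, 9928 and 1940 CPM in the 6 bins. MASH cells had 6186, 14469, 12196, 12994, 9696 and 1754 CPM, and Chow cells 7825, 14490, 10798, 11533, 7184 and 1536 CPM. The last bin, at an S share of 0.8 or more, was the lowest in all 3 libraries. In T-like cells the S-leaning cells had 2879, 1901 and 2919 CPM in MASH-Phe-free, MASH and Chow, against 12708, 15243 and 12552 CPM in G2/M-leaning cells. B-like cells had 1733, 1993 and 2286 CPM when S-leaning, against 6525, 10550 and 10980 CPM when G2/M-leaning. In erythroid-like cells the groups overlapped, with 10207, 10861 and 8920 CPM when S-leaning, against 5950, 13387 and 7657 CPM in 12, 60 and 4 G2/M-leaning cells.

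**Figure D3:**
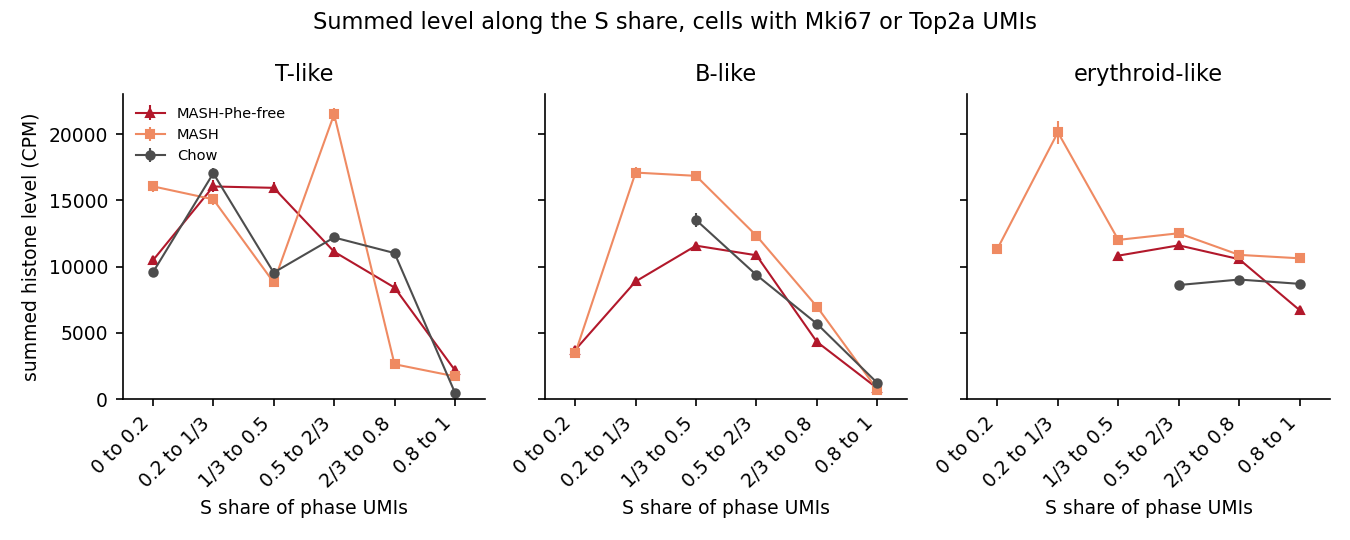
Summed member level (CPM) in positive T-like, B-like and erythroid-like cells, in bins of the S share (no unit), 1 line per library; bars are 95% exact Poisson intervals, which cover counting error only, and bins of fewer than 10 cells are left out. At an S share of 0.8 or more, T-like cells lie at 489 to 2180 CPM and B-like cells at 723 to 1226 CPM, while erythroid-like cells lie at 6717 to 10627 CPM.

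The same test was run between S-leaning and G2/M-leaning T-like cells, which gave at least 20 cells of both kinds in every library. No member was higher in S-leaning cells and 48 of 55 tested were lower, where 6.62% of all genes were called higher and 9.21% lower. All 55 had a log2 difference below 0, with a median of -2.44, against 0.02 over all genes. DESeq2 also called no member higher, and 51 members reached an unadjusted p under 0.05 in edgeR's test. H2ac10 (-3.34), H3c4 (-3.27) and H2ac23 (-3.26) fell the most on the log2 scale, and H3c13 (-1.62) the least of those called. Of the leading members, H2ac4 differed by -2.95 (SE 0.17, edgeR adjusted p = 4.99e-08), H2ac8 by -2.88, H4c4 by -2.49, H1f4 by -2.29 and H1f5 by -1.96 (SE 0.13, edgeR adjusted p = 2.30e-07). The 7 members not called were H1f1 (-0.64), H4c9 (-0.89), H3c1 (-0.96), H4c1 (-0.97), H4c14 (-1.03), H4c11 (-1.43) and H4c2 (-1.48).

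B-like cells could be fitted when the minimum was set at 15 cells, an alternative chosen after seeing the data. There 41 of 49 members were lower and none higher in S-leaning cells (7.44% of genes lower, 5.46% higher), with a median of -2.24 over members and 0.04 over all genes. H1f1 was among the lower members there, by -1.41 (SE 0.20, edgeR adjusted p = 0.00105). In edgeR's test 44 members had an unadjusted p under 0.05.

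Much of this difference went with how many gate UMIs the cells held. Of 100, 150 and 123 S-leaning T-like cells in MASH-Phe-free, MASH and Chow, 20, 24 and 16 held at least 11 gate UMIs, against 29 of 36, 32 of 35 and 39 of 44 G2/M-leaning cells. Among T-like cells with at least 11 gate UMIs, an alternative chosen after seeing the data, S-leaning cells had 7478, 5378 and 9727 CPM in MASH-Phe-free, MASH and Chow, against 18381, 19730 and 16437 CPM at middle S shares and 14396, 15844 and 13075 CPM in G2/M-leaning cells. S-leaning cells were still the lowest in every library. In that fit 27 of 54 members were lower and 1 was higher (10.6% of genes lower, 11.8% higher), with a median of -0.91 over members and -0.02 over all genes. The member that was higher was H1f1, by 1.08 on the log2 scale (SE 0.23, edgeR adjusted p = 0.00383). H2ac8 was still lower, by -1.19 (SE 0.19, edgeR adjusted p = 0.000425).

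The members did not keep a fixed mixture through the cycle. H1f1, a linker histone gene at the edge of the chromosome 13 cluster, made up 3.11%, 3.11% and 2.73% of member UMIs in S-leaning cells of MASH-Phe-free, MASH and Chow, against 0.465%, 0.816% and 0.520% in G2/M-leaning cells. Its share was thus higher in S-leaning cells in every library, by 6.70, 3.82 and 5.25 times, and the groups did not overlap. In T-like cells alone the ratio was 5.48, 3.10 and 3.0. Along the S share it was lowest at the G2/M end, at 0.261%, 0.258% and 0.284% below 0.2, and stood at 3.19%, 3.21% and 2.71% between 0.667 and 0.8. In negative cells H1f1 made up 0.642% of mean member CPM.

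Of the 56 members with at least 100 UMIs in these cells, 14 had a higher share in S-leaning cells in all 3 libraries, 18 a lower share in all 3, and 24 differed in direction among libraries. In 4 the share was over 2-fold higher in all 3 libraries: H1f1, H4c1, H3c1 and H4c2. H3c1 averaged 0.408% in S-leaning and 0.127% in G2/M-leaning cells, H4c1 0.145% and 0.0412%, and H4c2 0.113% and 0.0508%. These 4 are the members at positions 48 to 51 of the 53 along the chromosome 13 cluster, next to each other and followed only by H2bc1 and H2ac1. H1f5 averaged 16.1% in S-leaning and 9.62% in G2/M-leaning cells, and H2ac8 13.4% and 13.3%. These genes were singled out after their shares were seen, so the shares are a description with no test. The shares pool all named classes. Within T-like cells 10 of 37 members had a higher share in S-leaning cells in all 3 libraries, 10 a lower share and 17 differed in direction, and H1f1 was the only one over 2-fold higher in all 3, while H3c1 gave 5.23, 3.49 and 1.5 times. Within erythroid-like cells 6 of 53 were higher in all 3, 19 lower and 28 split. H1f1 gave 3.88, 5.10 and 4.29 times there, whereas H4c1 gave 1.11 and H4c2 1.03 times in MASH.

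**Figure D4:**
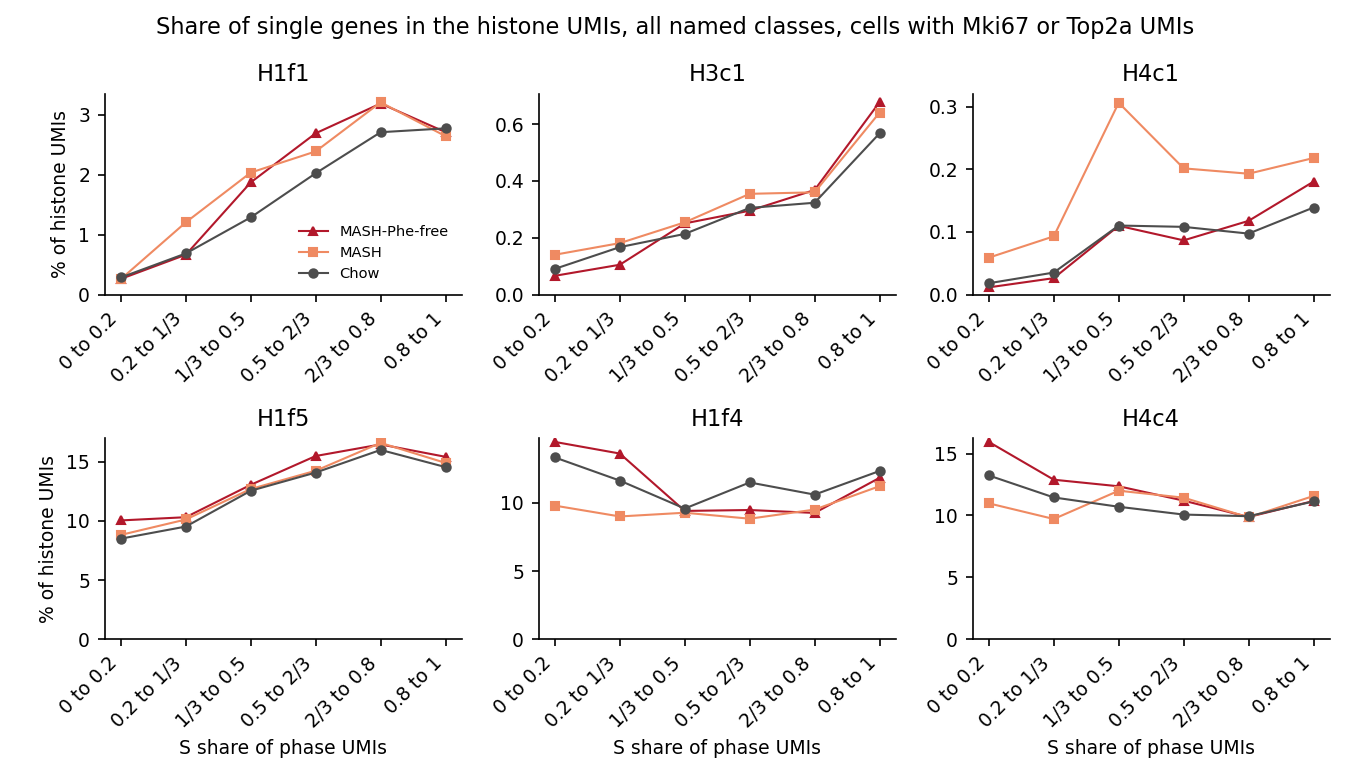
Share of member UMIs (percent) held by 6 members in bins of the S share (no unit), in positive cells of all named classes, 1 line per library; the vertical scale differs between panels. The share of H1f1 stands at 0.284% or less below an S share of 0.2 and at 2.71% or more between 0.667 and 0.8 in all 3 libraries.

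The promoter of H1f1 is shown because the ratio of its shares in S-leaning and G2/M-leaning cells was the largest of the 56 members, whereas the share itself differed more for H1f5. Its RefSeq window (GRCm38.p6, chr13:23763418-23763717, plus strand) holds 1 CCAAT and 1 TATAAA, marked by capitals, and no octamer.
H1f1 promoter: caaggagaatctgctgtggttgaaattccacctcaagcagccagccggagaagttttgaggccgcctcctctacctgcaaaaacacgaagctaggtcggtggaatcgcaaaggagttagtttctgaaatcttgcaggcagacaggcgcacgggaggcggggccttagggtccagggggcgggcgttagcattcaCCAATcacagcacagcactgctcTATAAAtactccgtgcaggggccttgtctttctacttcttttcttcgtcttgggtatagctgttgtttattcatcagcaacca

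In negative cells the classes differed in which members they held. In T-like, B-like, NK-like and monocyte-like cells the 3 highest members were H4c4, H1f4 and H1f2, in differing order. In negative T-like cells H4c4 supplied 26.2% of mean member CPM, H1f2 19.0% and H1f4 14.4%; in B-like cells H4c4 supplied 21.1%, H1f4 15.3% and H1f2 13.8%. H2bc4 was low in both, at 1.79 CPM in T-like and 5.98 CPM in B-like cells on average.

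Megakaryocyte- or platelet-like cells, taken by markers such as Pf4, Ppbp and Itga2b, had the highest histone level of any negative class with at least 20 cells in every library. They had 7094, 4075 and 5438 CPM in 57 MASH-Phe-free, 36 MASH and 47 Chow cells. H2bc4 had 2529, 1342 and 1440 CPM there, and H1f2 had 1837, 1199 and 2275 CPM. H4c9 followed with 1301, 368 and 767 CPM and H4c18 with 766, 735 and 592 CPM. These 4 members made up 32.0%, 32.0%, 14.7% and 12.6% of mean member CPM of the class and lay far above every other member in all 3 libraries. H1f5, one of the highest members of positive cells, had 0, 1 and 1 UMI there, and H1f4 had 31.5, 32.0 and 26.9 CPM. The cells were shallow, with medians of 1240, 1079 and 1154 UMIs, against 6670, 6418 and 7349 UMIs over all kept cells of their libraries. Of the 10 leading genes of the class by fold, 4 were class markers (Ppbp, Treml1, Gp6 and Pf4), which the marker rule itself selects for. Tubb1, Slc6a4 and Alox12 ranked above them and were not markers. The summed erythroid marker level of these platelet-like cells was 42.0, 47.9 and 40.4 CPM, with 5 of 8 markers at 0. These were only 4, 3 and 3 UMIs, so the markers at 0 say little. Their summed mature neutrophil marker level was 157, 128 and 175 CPM, from 15, 8 and 13 UMIs, with 5 or 6 of 8 markers at 0. The marker rule itself left out cells rich in markers of other classes.

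Mature neutrophil-like cells shared part of this pattern. Negative cells of that class had 835, 468 and 594 CPM in MASH-Phe-free, MASH and Chow. H1f2 had 248, 97.3 and 149 CPM, H2bc4 201, 98.5 and 140 CPM and H2bc6 78.9, 83.5 and 73.4 CPM. H4c9 had 79.4, 33.3 and 61.0 CPM and H2ac18 32.6, 48.6 and 41.4 CPM. H4c4, the leading member of negative B-like and T-like cells, had 8.46, 3.06 and 6.54 CPM. Negative immature neutrophil-like cells were instead led by H1f4 with 84.7 CPM on average, H4c4 with 52.6 CPM and H1f2 with 42.7 CPM. The summed level of platelet markers in negative mature neutrophil-like cells was 8.89, 9.79 and 6.90 CPM, against 26068, 19721 and 25263 CPM in platelet-like cells, and H1f2 and H2bc4 each stood above that marker sum in neutrophil-like cells.

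**Figure D5:**
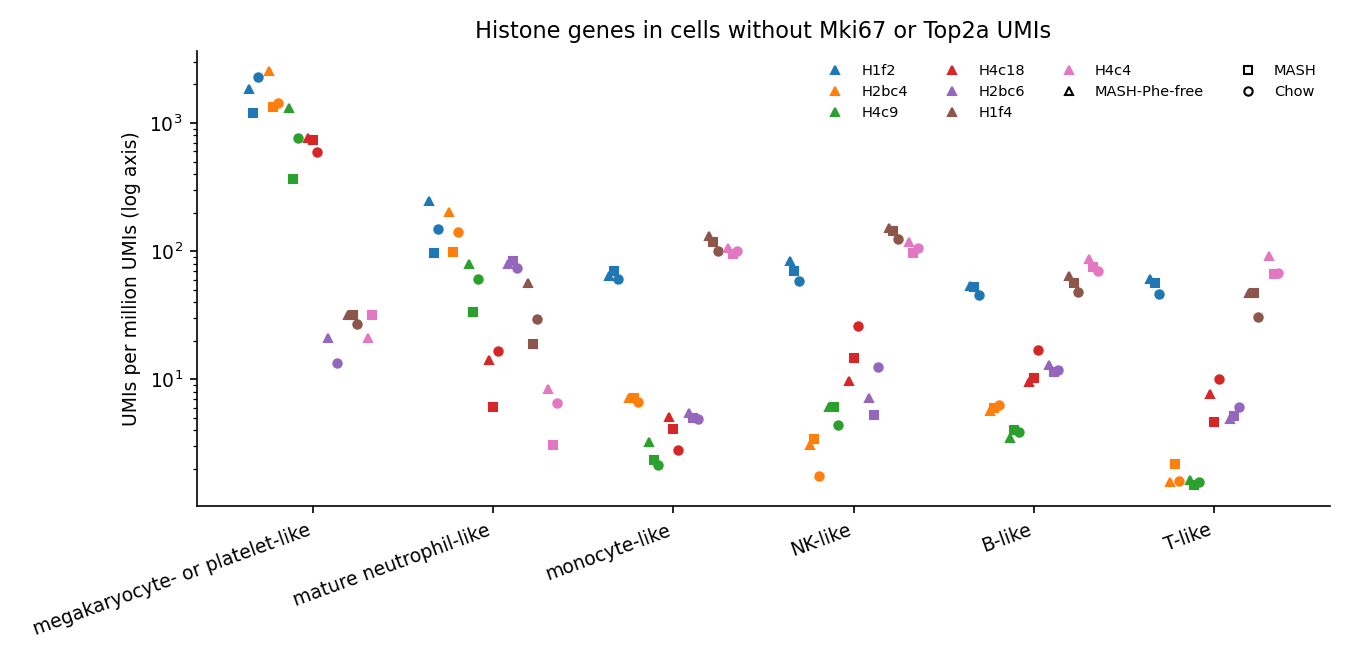
Level (CPM, log axis) of single members in negative cells of 6 classes; colours are members and symbol shapes are libraries, and members at 0 are left out. H2bc4 lies at 1342 CPM or more in platelet-like cells and at 98.5 to 201 CPM in mature neutrophil-like cells.

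The genes that make and handle histone mRNA were led by Slbp. The list of histone mRNA control and processing held 15 genes, all tested in T-like and B-like cells. In T-like cells 6 were higher and 1 lower in positive cells, with a median log2 difference of 0.19, where 25.5% of all genes were called higher and 22.8% lower. Slbp, which binds the stem-loop, differed by 1.26, Cpsf2, a subunit of the cleavage machinery, by 0.60, Eri1, an exonuclease that trims histone mRNA ends, by 0.56, and Casp8ap2, a protein of histone locus bodies, by 0.26. Cpsf3, the endonuclease of the cleavage machinery, was lower by -0.28. In B-like cells, where 20% of all genes were called higher and 14% lower, 9 were higher and 1 lower, led by Slbp with 1.09, Eri1 with 0.57, Cpsf2 with 0.36 and Ncbp1, a cap-binding protein, with 0.36, and the terminal uridylyltransferase Tut7 was lower by -0.18.

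Histone chaperones, which carry new histones to DNA, were higher in positive cells in 9 of 12 cases in T-like and 11 of 12 in B-like cells, with medians of 0.54 and 0.64. In T-like cells the largest differences were those of Chaf1a (4.02) and Chaf1b (1.62), subunits of chromatin assembly factor 1, Asf1b (3.51), a chaperone of H3 and H4, and Nasp (0.74), which holds soluble histones. B-like cells gave 3.50 for Chaf1a, 2.41 for Chaf1b, 3.56 for Asf1b and 1.41 for Nasp.

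Histone variants outside the clusters were higher in positive cells in 9 of 10 tested cases in T-like and 10 of 10 in B-like cells, with medians of 1.51 and 1.53. Cenpa, the H3 variant of centromeres, differed by 3.05 in T-like cells, H1f10 by 2.70, H2ax, the H2A variant of DNA damage, by 2.45 and H1f0, the linker histone of resting cells, by 1.71. In B-like cells H1f10 differed by 7.51, H2ax by 2.71, H2az1 by 2.19 and H1f0 by 2.07. Between S-leaning and G2/M-leaning T-like cells, 8 of 9 tested variants were lower, where 9.21% of all genes were, led by Cenpa (-3.91), H2ax (-3.51), H2az2 (-2.21) and H1f0 (-1.76). By comparison Slbp was higher in S-leaning cells, by 0.67 (SE 0.17, edgeR adjusted p = 0.0181), and Srrt, an RNA effector protein, lower by -0.48, of 14 processing genes tested. Of 12 chaperones, Chaf1b (1.02), Hat1, a histone acetyltransferase (0.77), and Nasp (0.52) were higher and Asf1b (-1.49) was lower. These calls depended on the cells taken. Among T-like cells with at least 11 gate UMIs, 10 of 12 chaperones and 4 of 14 processing genes were higher, and Asf1b, at 0.08, was no longer called (edgeR adjusted p = 0.730). In B-like cells with the minimum of 15 cells, no chaperone was higher and 2 were lower, Asf1b among them (-1.06), while Slbp was higher by 0.67 (edgeR adjusted p = 0.0285).

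MASH and Chow were compared as 1 library each, with no test between them. In positive cells the summed member level was higher in MASH in 4 classes: B-like, NK-like, erythroid-like and macrophage-like. B-like cells had 4339 CPM in MASH and 2720 CPM in Chow, a ratio of 1.60 [1.57 to 1.63], beside a median ratio over all genes of 0.972. Cells at 5000 CPM or more, 69 of 577 in MASH and 37 of 462 in Chow, held 92.6% and 86.4% of those UMIs. The remaining positive B-like cells averaged 405 CPM in MASH and 436 CPM in Chow, so they did not share the rise. NK-like cells had 2739 and 1325 CPM, a ratio of 2.07 [1.94 to 2.20], but 3 cells in MASH and 1 cell in Chow held 50% of those UMIs. Macrophage-like cells had 2403 CPM in MASH and 394 CPM in Chow, a ratio of 6.10 [5.16 to 7.26], from 1282 and 153 UMIs. Of these, 33 of 188 positive cells in MASH held 81.0% and 3 of 58 in Chow held 28.1%, and the remaining cells averaged 516 and 287 CPM. Erythroid-like cells gave 1.27 [1.26 to 1.29], T-like cells 0.869 [0.855 to 0.884], monocyte-like cells 0.632 and immature neutrophil-like cells 0.577, the last with 27 positive cells in MASH and 125 in Chow. Under 5000 CPM, positive monocyte-like cells averaged 810 CPM in MASH and 783 in Chow. Immature neutrophil-like cells there averaged 583 and 516 CPM, so neither class was lower in MASH below that level. Plasma-like cells had 502 CPM in MASH and 1009 CPM in Chow, a ratio of 0.497 [0.468 to 0.529], but without the 2% deepest cells of each library the log2 ratio was 1.43, so the direction turned. The cause was not tested.

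Single members at least 2-fold apart, with at least 20 UMIs over both libraries, were counted beside the share of all genes that were. In positive B-like cells 9 of 56 members were at least 2-fold higher in MASH (1.89% of genes), led by H4c11 (3.11), H2ac7 (2.60) and H2bc13 (2.39), while H4c16 (0.708), H3c10 (0.791) and H2bc21 (0.901) were lowest. In NK-like cells 24 of 40 were higher (3.57%), led by H2ac15 (7.53), H2bc15 (6.13) and H3c8 (4.8). In T-like cells 3 of 56 were lower (1.35%), which were H3c10 (0.407), H2bc13 (0.418) and H3c8 (0.499), while H3c4 (1.98), H4c1 (1.32) and H2ac12 (1.24) were the highest. In erythroid-like cells 2 of 60 were higher (4.62%), H4c1 (2.44) and H2bc27 (2.02). H4c1 had 29.5 CPM in MASH and 12.1 CPM in Chow there, with an interval of the ratio of 1.76 to 3.47. In the remaining classes, given by their counts, 16 of 16 members were higher in macrophage-like cells (5.08%), while 16 of 34 were lower in plasma-like (5.48%), 13 of 50 in immature neutrophil-like (5.36%), 7 of 46 in monocyte-like (2.63%) and 5 of 23 in cDC1-like cells (2.17%).

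In negative B-like, T-like, NK-like and monocyte-like cells MASH and Chow lay close together. The ratio was 1.0 [0.982 to 1.03] in B-like cells, 1.08 in T-like, 1.02 in NK-like and 1.06 in monocyte-like cells. It was 1.79 [1.66 to 1.93] in macrophage-like cells, with 411 CPM in MASH and 230 CPM in Chow, and 9 of 22 members at least 2-fold higher there (2.08% of genes), led by H1f5 (3.76), H2bc8 (3.15) and H4c9 (2.56). Basophil-like cells gave 1.39 [1.14 to 1.71], cDC1-like cells 1.26 [1.10 to 1.45] and cDC2-like cells 1.25 [1.06 to 1.48]. Mature neutrophil-like cells gave 0.787 [0.734 to 0.845], with 4 of 15 members at least 2-fold lower (6.81% of genes), and platelet-like cells 0.749 [0.638 to 0.879].

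MASH-Phe-free and MASH were likewise 1 library each. In positive cells the level was higher in MASH-Phe-free in 7 classes. NK-like cells had 5681 CPM in MASH-Phe-free and 2739 CPM in MASH, a ratio of 2.07 [2.0 to 2.15], from 84 and 163 cells, of which 4 and 3 held 50% of the UMIs. Restricted to S-leaning cells the log2 ratio of NK-like cells was -0.31, so its direction turned. Immature neutrophil-like cells gave 1.77 [1.71 to 1.83], from 285 and 27 cells, and monocyte-like cells 1.73 [1.69 to 1.77], from 246 and 92 cells. In MASH, 5 immature neutrophil-like and 9 monocyte-like cells at 5000 CPM or more held 89.9% and 79.8% of those UMIs. Under 5000 CPM the direction was opposite, with 499 CPM in MASH-Phe-free and 583 in MASH for immature neutrophil-like cells. Monocyte-like cells there had 685 and 810 CPM. T-like cells gave 1.19 [1.17 to 1.21] and plasma-like cells 1.39 [1.31 to 1.48]. In cDC1-like cells the ratio was 1.55 [1.47 to 1.63], from 36 and 38 cells. Of those, 5 in MASH-Phe-free and 4 in MASH stood at 5000 CPM or more and held 93.5% and 87.2% of the UMIs. The other positive cDC1-like cells averaged 383 and 419 CPM, the opposite direction. Mature neutrophil-like cells gave 2.42 [1.82 to 3.27], from 196 and 63 UMIs. B-like cells, in contrast, had 3309 CPM in MASH-Phe-free and 4339 CPM in MASH, a ratio of 0.763 [0.750 to 0.775], erythroid-like cells gave 0.945 and macrophage-like cells 0.618 [0.573 to 0.668]. Chow B-like cells, at 2720 CPM, were below both. Positive B-like cells under 5000 CPM averaged 495 CPM in MASH-Phe-free and 405 CPM in MASH, the opposite direction to the sum.

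Among single members, 6 of 56 were at least 2-fold higher in MASH-Phe-free positive T-like cells (1.09% of genes), led by H4c6 (2.58), H4c11 (2.55) and H2bc13 (2.39). The lowest ratios there were those of H2ac12 (0.690), H2bc22 (0.750) and H2bc21 (0.810). In B-like cells 2 of 56 were lower (1.87%), H2ac21 (0.368) and H4c2 (0.498). In NK-like cells 16 of 44 were higher (1.72%), led by H2bc9 (3.36), H2bc7 (3.24) and H3c3 (3.22), and 1 was lower, H3c8 (0.260), where 3.1% of genes were. In erythroid-like cells 3 of 60 were lower (3.58%), H2bc27 (0.283), H2bc23 (0.397) and H4c1 (0.403), the last with 11.9 CPM in MASH-Phe-free and 29.5 CPM in MASH. By count, 18 of 54 members were higher in immature neutrophil-like (5.39%), 11 of 30 in cDC1-like (2.49%), 8 of 55 in monocyte-like (4.02%) and 9 of 37 in plasma-like cells (5.52%), and 4 of 22 were lower in macrophage-like cells (3.74%). Most member UMIs behind the cDC1-like count came from 5 MASH-Phe-free and 4 MASH cells.

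Negative cells of MASH-Phe-free were slightly above those of MASH in most classes. The ratio was 1.16 [1.13 to 1.19] in B-like, 1.18 [1.13 to 1.22] in T-like, 1.15 [1.06 to 1.24] in NK-like and 1.13 [1.08 to 1.18] in monocyte-like cells, and 7 of 49 members were at least 2-fold higher in B-like cells (1.02% of genes). Markers of erythroid cells were also higher in MASH-Phe-free than in MASH. Their summed level in negative B-like cells was 9.89 CPM in MASH-Phe-free, 6.86 in MASH and 2.55 in Chow. In negative T-like cells it was 11.7, 9.22 and 2.65 CPM, with none of the 8 markers at 0 in either class. Marker levels were thus lowest in Chow, while the histone ratio of MASH to Chow was 1.0 in negative B-like and 1.08 in negative T-like cells. The part of these markers in the ratios was not tested. The largest ratio among negative classes with at least 30 cells in both libraries was that of mature neutrophil-like cells, 1.78 [1.68 to 1.89], where 12 of 24 members were at least 2-fold higher (7.5% of genes), led by H1f4 (2.98), H2ac6 (2.97) and H1f5 (2.91), while H4c14 (0.660), H2ac18 (0.670) and H3c14 (0.922) were the lowest. Erythroid markers in these cells summed to 19.7 CPM in MASH-Phe-free, 11.3 in MASH and 2.91 in Chow, with 1, 3 and 3 of the 8 at 0. The histone ratio of MASH to Chow in these cells was 0.787, and the part of the markers was not tested. Platelet-like cells gave 1.74 [1.51 to 2.02]. The 27 and 87 negative erythroid-like cells gave 3.87, beside a median over all genes of 3.0.

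Reads of the members are partly interchangeable. In their annotated transcripts 58 of the 66 share a run of 91 bases with another member, and in 25 more than 50% of the transcript is so shared, so values of single members, H2ac4 among them, are uncertain where the counting could split or drop such reads. The summed levels are less exposed to a split between members, but not to reads dropped as multiply mapped.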

How the data were processed

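The authors deposited raw counts of unique molecular identifiers (UMIs) per gene and cell barcode, 1 matrix per library, and these counts were used as deposited. Per the labels' protocols the libraries came from a 10x 5′ kit. Per the submitters' processing notes Cell Ranger 9.0.1 and Seurat 5.3.0 were used with GRCm39. How multiply mapped reads were counted is not stated in the labels. Sequences came from RefSeq and GENCODE tables of GRCm38, matched by symbol or gene ID, so their coordinates are on that build.

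Cells had at least 500 UMIs, at least 300 genes and at most 10% mitochondrial UMIs. A cell joined the class with most of its 8 markers detected, at least 3, and cells with markers of several classes were left out. No doublet caller was run, and an alternative left out the 2% deepest cells. The gate was 1 UMI of Mki67 or Top2a, and phase needed 10 UMIs of the S and G2/M lists. UMIs were summed per library, class and state. Classes with at least 20 cells of both states in every library were tested on genes with at least 30 UMIs in edgeR 4.0.16 (R 4.3.3; TMM, quasi-likelihood, Benjamini-Hochberg over all genes), with DESeq2 1.42.0 as an alternative. Sums and intervals were computed in Python 3.11.15 (scipy 1.17.1, numpy 2.4.6, pandas 2.3.3) and drawn with matplotlib 3.10.9. The library was a block because both states come from 1 library; replicate numbers were given in accession order and pair nothing. The p-values measure only the spread among these 3 libraries. Groups were compared by ratios, counted from 2-fold with at least 20 UMIs.

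Named were the 8 highest members in positive cells, the 6 highest in negative cells, up to 4 called genes of each list and direction, and the 3 members farthest apart each way between libraries in the classes described gene by gene. Members called lower in S-leaning cells are given by count, range and examples. The members and lists were chosen with earlier results of these data known. On simulated T-like data of 13891 genes the test of positive against negative cells recovered 55% of 2-fold and 100% of 4-fold and 10-fold changes and called 0.029% of unchanged genes. For the comparison of S-leaning with G2/M-leaning cells, simulated on 10382 genes, it recovered 34%, 100% and 100% and called 0.069%. In both simulations all genes had the same dispersion, and only a small set of better counted genes was changed, all upward. The real comparisons had many calls in both directions, so these rates describe the simulated setting only.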

Additional observations from a re-analysis of the deposited data

Results flagged for a closer look

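In 4 cases the summed histone level of positive cells differed between 2 libraries in a direction opposite to, or of a size unlike, that of other classes; none of these differences between classes was tested. Plasma-like cells gave a ratio of MASH to Chow of 0.497, while macrophage-like cells gave 6.1. Macrophage-like cells gave a ratio of MASH-Phe-free to MASH of 0.618, while mature neutrophil-like cells gave 2.42, the last from 36 and 24 cells.

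Cells that no class took also carried histone UMIs. Positive cells under the marker minimum had 8431 CPM in MASH-Phe-free, 5524 in MASH and 6302 in Chow, from 147, 218 and 83 cells with medians of 1602, 1403 and 1338 UMIs. Positive cells with markers of several classes had 5179, 4049 and 4876 CPM, from 349, 258 and 192 cells.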

How the results depend on the processing

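With single libraries left out, the counts of members called higher in positive cells ranged over 51 to 54 (B-like), 52 to 53 (T-like), 33 to 38 (NK-like), 46 to 54 (immature neutrophil-like), 43 to 55 (monocyte-like), 8 to 13 (macrophage-like), 17 to 23 (cDC1-like) and 1 to 2 (plasma-like), and members called lower in S-leaning T-like cells over 42 to 49. Without the replicate block, that is without pairing both states of a library, the counts were 0 in plasma-like and macrophage-like cells and 52 in B-like, 53 in T-like, 33 in NK-like, 54 in immature neutrophil-like, 55 in monocyte-like and 28 in cDC1-like cells, with 48 lower in S-leaning T-like cells. In plasma-like cells DESeq2 called 12 of 38 (1.18% of all genes), no filter on low counts gave 21 of 63 (1.67%), and a gate of 2 UMIs gave 9 of 38 (0.830%). No filter gave 19 of 63 in macrophage-like cells (2.40% of all genes), and there 1 member was called lower (0.615% of all genes). The members tested also fell in some of these fits, in cDC1-like cells to 20 without MASH-Phe-free. Without the 2% deepest cells the count was 0 of 25 tested in plasma-like and 34 of 51 in monocyte-like cells. It was 16 of 31 in macrophage-like and 15 of 19 in cDC1-like cells. With at least 11 gate UMIs, 1 member was higher and 27 lower in S-leaning T-like cells. In S-leaning cells only, 2 of 4 classes were higher in MASH than in Chow and 2 of 5 in MASH-Phe-free than in MASH. The direction turned for plasma-like cells in MASH against Chow without the 2% deepest cells (log2 ratio 1.43) and for NK-like cells in MASH-Phe-free against MASH among S-leaning cells (-0.31). The cause was not tested. Among single values, 261 moved little and 60 moved by more than their spread or interval. No value could be had for immature neutrophil-like cells without the 2% deepest cells, for macrophage-like and cDC1-like cells with a gate of 2 UMIs, or for T-like phases at shares of 0.8 and 0.2. Small numbers of positive cells limit the precision, and 1 library per group leaves differences between animals unmeasured.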
